A study of Mus musculus with 19 samples.

Results

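Oxidative phosphorylation subunits were followed across 19 RNA sequencing libraries of mouse oral squamous cell carcinoma. The members were the protein-coding genes named for subunits and assembly factors of the 5 respiratory complexes, taken by symbol from a table of 55487 genes, with at least 10 counts in at least 3 libraries. Of 111 genes with a matching symbol, 108 met that minimum, 95 of them encoded in the nucleus and 13 in mitochondrial DNA. The others were Cox7b2, with 2 counts in all libraries together, and Cox8c and a second Ensembl entry for Atp5o, each at 0. All 108 members also passed the filter on low counts for testing.

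The respiratory chain passes electrons from NADH and succinate to oxygen through complexes I to IV, and the proton gradient that builds up drives ATP synthesis by complex V. Its subunits come from both genomes: mitochondrial DNA encodes the hydrophobic core proteins, complex II is wholly nuclear, and imported nuclear proteins make up the rest. Several complex IV subunits exist as a heart and muscle isoform and a ubiquitous one, and skeletal muscle fibres are rich in mitochondria. The nuclear members comprised 36 subunits and 8 assembly factors of complex I, 4 subunits and 4 assembly factors of complex II, 8 subunits of complex III, 16 of complex IV (Ndufa4 included) and 16 of complex V. The other 3 were Cox7a2l, a factor that joins complexes III and IV, Ndufa4l2, a paralog of Ndufa4, and Atp5s. Mitochondrial members were 7 subunits of complex I, 1 of complex III, 3 of complex IV and 2 of complex V.

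All mice were C57BL/6J and drank the carcinogen 4-nitroquinoline 1-oxide (4NQO) at 100 µg/ml for 10 weeks, starting at 6 weeks of age. The groups were regorafenib combined with anti-PD1 (the combination, 5 libraries), regorafenib alone at 5 mg/kg/day (4), anti-PD1 alone (3), an agonist antibody to CD40 (3) and vehicle (4). Regorafenib inhibits several receptor kinases, anti-PD1 blocks an inhibitory receptor of T cells, and CD40 activates antigen-presenting cells. No regorafenib dose is stated for the combination, and no treatment schedule for the CD40 antibody. Nothing in the labels says that libraries came from separate animals, so p-values measure the spread between libraries, which may be technical in part. Totals ran from 16776177 to 24969492 counts per library. All 15 squamous epithelial markers had counts in every library of this squamous carcinoma, and so did all 20 skeletal muscle markers. The muscle markers made up 3.20% to 6.13% of counts, and all 4 regorafenib libraries (3.20% to 3.94%) lay below the other 15 (4.27% and higher). Squamous markers summed to 7.39% to 7.63% of counts with regorafenib and 5.94% to 6.68% with vehicle. Stomach markers ranged from 0.00835% to 0.0552% with regorafenib and were 0.0275% in vehicle 2, against 0.000108% to 0.000128% in the other 3 vehicle libraries. They reached 0.0610% in combination 5, 0.1135% in anti-PD1 1 and 0.00722% in anti-CD40 2, the highest libraries of those groups. Of 12 markers of slow muscle and heart, 6 had counts in every library, led by Atp2a2 at 6957 to 10564 counts and Actc1 at 1384 to 4769, while Myh6 had 0 to 3 and Nppa 0 to 2. Of 6 markers of brown fat, 4 had counts in every library, led by Ppargc1a at 594 to 2126, while Ucp1 had 0 to 6 and Elovl3 0 to 2.

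Mitochondrial mRNA took more counts than nuclear mRNA for the same complexes in every library. The 13 mitochondrial members held 6.60% to 11.3% of all counts and the 95 nuclear members 1.60% to 2.30%, a ratio of 4.12 to 5.00. With the combination, mitochondrial members averaged 8.81% ± 0.477 of counts (SD, n = 5) and nuclear members 1.98% ± 0.131. With regorafenib these shares were 8.13% ± 1.04 and 1.81% ± 0.143 (n = 4). They were 9.41% ± 0.505 and 2.06% ± 0.0486 with anti-PD1 (n = 3), and 9.68% ± 1.92 and 2.10% ± 0.268 with anti-CD40 (n = 3). Vehicle libraries had 9.23% ± 0.980 and 1.96% ± 0.141 (n = 4). Every treated group overlapped with vehicle in both shares, with regorafenib 3 the lowest library and anti-CD40 2 the highest. The regorafenib libraries (nuclear 1.60% to 1.92%, mitochondrial 6.60% to 8.86%) all lay below the anti-PD1 ones (2.01% to 2.11% and 8.93% to 9.93%). No test set regorafenib against anti-PD1. These are bulk tumours, in which fewer cells of a type and less RNA per cell cannot be told apart.

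**Figure D1:**
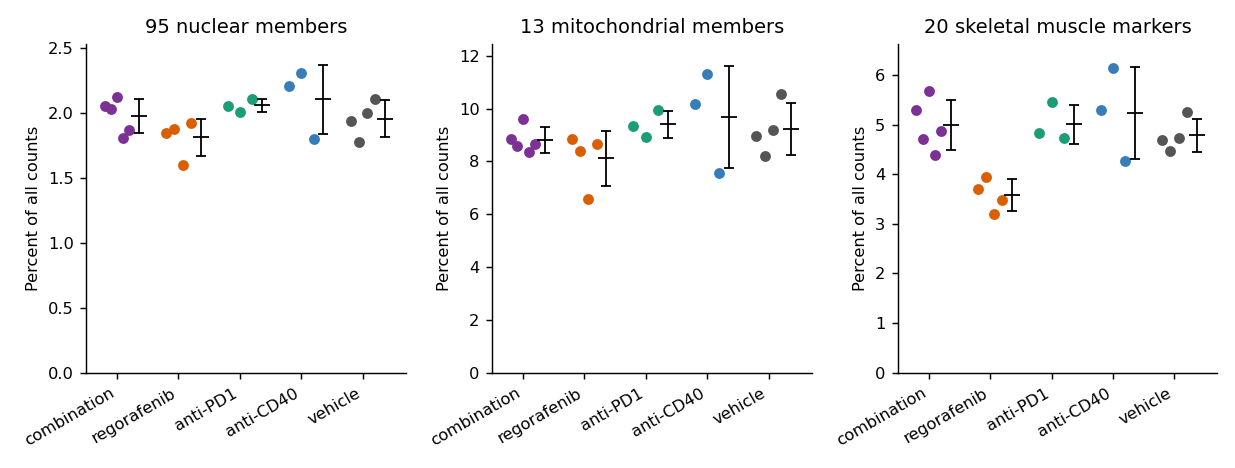
Percent of all counts (vertical axes) taken by the 95 nuclear members, the 13 mitochondrial members and 20 skeletal muscle markers in each library; points are libraries, and bars give the mean and SD of a group. Every treated group overlaps vehicle in the first 2 panels, although the regorafenib libraries there all lie below the anti-PD1 ones. In muscle markers the 4 regorafenib libraries lie below the other 15.

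Counts of the mitochondrial genes split into a high and a low class. Cytochrome oxidase subunit 1, mt-Co1, the catalytic subunit of complex IV (chromosome M, 5328 to 6872), averaged 791300 counts per library and made up 43.5% of the counts of mitochondrial members. Cytochrome b, mt-Cytb, of complex III followed with 318400, then the complex I subunits mt-Nd5 (202300), mt-Nd1 (202100), mt-Nd2 (167000), mt-Nd4 (135300) and mt-Nd6 (2486), the last of them the one gene of the set transcribed from the other strand. The other 6 genes, which encode the remaining subunits of complexes I, IV and V, lie in 1 run from 7013 to 10173 and were low. Among these, mt-Co2 averaged 377.7 counts, mt-Co3 271.5, mt-Atp6 161.7, mt-Nd3 24.4, mt-Nd4l 21.9 and mt-Atp8 14.6.

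A run of 7 annotated pseudogenes on chromosome 1 (GRCm38, 24611535 to 24616197, minus strand) copies that part of the mitochondrial genome at 99.7% to 100% identity. Gm28661 copies mt-Co2, Gm10925 mt-Atp6, Gm28437 mt-Co3, Gm28438 mt-Nd3, Gm10222 mt-Nd4l, and Gm28439 and Gm29216 copy parts of mt-Nd4 and mt-Co1. They averaged 101 to 2302 counts per library. The start of mt-Nd3 and of mt-Co2 is shown beside the copy, from the GENCODE transcripts, because no read within the identical stretches can be assigned to 1 of the 2 loci, with the base that differs in capitals.
mt-Nd3: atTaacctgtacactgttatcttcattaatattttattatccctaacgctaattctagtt
Gm28438: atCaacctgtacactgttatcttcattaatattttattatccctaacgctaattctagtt
mt-Co2: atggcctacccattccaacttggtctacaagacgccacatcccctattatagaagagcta
Gm28661: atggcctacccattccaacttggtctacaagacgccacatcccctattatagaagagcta
In mt-Nd3 and its copy 1 base differs over 345 aligned, and none differs over 681 between mt-Co2 and its copy. Of all windows of 50 bases, the share also found in another annotated transcript was 100% for mt-Co2, 99.9% for mt-Co3, 99.5% for mt-Atp6, 98.8% for mt-Nd4l and 98% for mt-Nd3. It was 62.2% for mt-Nd4, 51.1% for mt-Co1, 8.19% for mt-Nd2, 7.61% for mt-Nd5 and 0% for mt-Nd1, mt-Nd6 and mt-Cytb. No window of mt-Atp8 was shared, although it lies in the same run, and no annotated pseudogene transcript covers it. Values of all mitochondrial members that share windows are therefore uncertain, mt-Co1 and mt-Nd4 included, and most of all those of the 5 low genes that share 98% or more. Windows were matched to annotated transcripts only, on either strand. Sharing elsewhere, such as between Gm10925 (to 24614651) and Gm28661 (from 24614885), was not tested, so mt-Atp8 is uncertain too. How the counting treated reads that fit several places is not given in the sources used here.

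**Figure D2:**
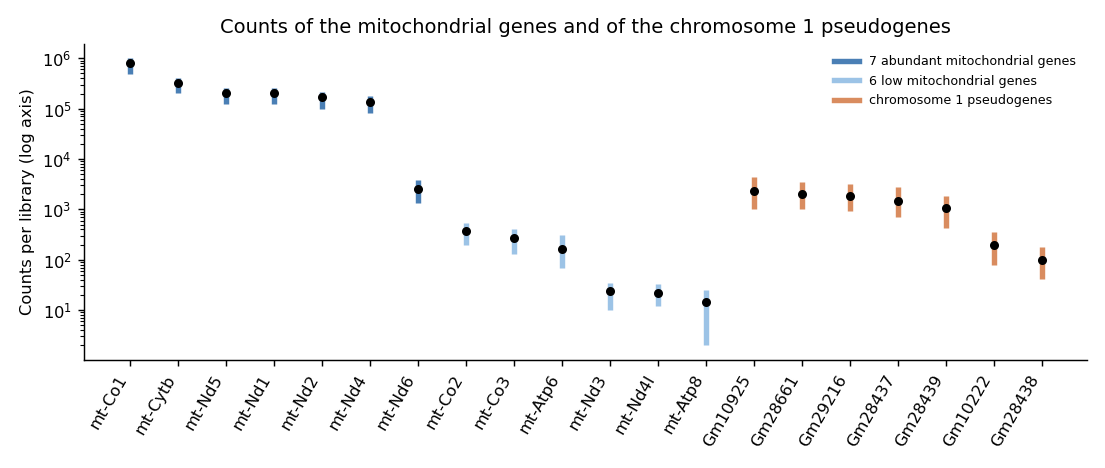
Mean counts per library (points) and their range over 19 libraries (bars), on a log axis, for the 13 mitochondrial members and for the chromosome 1 pseudogenes that copy part of them. The 7 abundant genes average 2486 counts or more, the 6 low ones 378 or fewer, and the pseudogenes 101 to 2302.

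Nuclear members had a smaller median spread between libraries than all tested genes, whose levels were not matched to theirs. Levels are given in CPM, counts scaled to library size by TMM, which corrects for library composition. The SD of log2 CPM over the 19 libraries had a median of 0.16 for nuclear members, 0.33 for mitochondrial members and 0.20 for all 16909 tested genes. Mitochondrial members with high counts were tighter, at 0.19 for mt-Co1 and 0.21 for mt-Cytb, than mt-Atp8, at 0.61. Among nuclear members the least variable was Cox7a2l, at 0.09, and the most variable Ndufa4l2, at 0.39, followed by Cox4i2, the isoform of lung and hypoxic tissue, at 0.36. Per kilobase of exon the highest nuclear level in vehicle was that of Atp5a1, the alpha subunit of ATP synthase, at 606.7 CPM per kb, and the highest mitochondrial level that of mt-Co1, at 26740 CPM per kb.

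There were 4 members that passed a test in at least 1 comparison: Ndufs1, Sdha, Cox6a1 and Cox8a. Ndufs1 is the largest iron-sulphur subunit of complex I, and Sdha the flavoprotein that oxidises succinate in complex II. Cox6a1 and Cox8a are the ubiquitous forms of small complex IV subunits, whose muscle counterparts are Cox6a2 and Cox8b. The promoters of 77 of the 95 nuclear members are in the RefSeq table (GRCm38.p6, 250 bases before to 50 after the start). Of these, the promoters of the 3 called members in the table and that of the muscle isoform Cox8b are printed, with matches in capitals to the motifs of NRF1 (GCGCANGCG), of ETS factors such as GABP (CCGGAAG), of ERR (TCAAGGTCA) and of YY1 (AAGATGGCG), on either strand, matches of 1 motif that overlap being merged.
Cox6a1, chr5:115348909-115349208, minus strand: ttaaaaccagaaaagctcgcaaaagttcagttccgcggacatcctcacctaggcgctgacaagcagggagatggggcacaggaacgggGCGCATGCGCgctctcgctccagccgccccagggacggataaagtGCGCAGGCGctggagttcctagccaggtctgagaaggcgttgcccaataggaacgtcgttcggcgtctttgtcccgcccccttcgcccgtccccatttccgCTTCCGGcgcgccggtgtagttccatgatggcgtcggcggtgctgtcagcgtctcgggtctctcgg
Sdha, chr13:74350191-74350490, minus strand: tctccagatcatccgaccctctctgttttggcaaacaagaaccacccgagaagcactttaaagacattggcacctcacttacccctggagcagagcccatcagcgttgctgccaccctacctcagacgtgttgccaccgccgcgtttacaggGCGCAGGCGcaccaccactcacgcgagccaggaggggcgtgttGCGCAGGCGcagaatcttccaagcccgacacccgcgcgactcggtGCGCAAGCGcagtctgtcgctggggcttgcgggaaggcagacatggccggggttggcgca
Cox8a, chr19:7217567-7217866, minus strand: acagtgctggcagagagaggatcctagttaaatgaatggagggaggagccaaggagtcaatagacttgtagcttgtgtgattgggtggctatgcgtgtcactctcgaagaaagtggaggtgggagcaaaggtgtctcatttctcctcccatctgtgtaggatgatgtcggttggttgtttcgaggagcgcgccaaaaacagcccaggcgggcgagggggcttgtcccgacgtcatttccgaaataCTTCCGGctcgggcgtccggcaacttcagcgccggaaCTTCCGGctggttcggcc
Cox8b, chr7:140900397-140900696, minus strand: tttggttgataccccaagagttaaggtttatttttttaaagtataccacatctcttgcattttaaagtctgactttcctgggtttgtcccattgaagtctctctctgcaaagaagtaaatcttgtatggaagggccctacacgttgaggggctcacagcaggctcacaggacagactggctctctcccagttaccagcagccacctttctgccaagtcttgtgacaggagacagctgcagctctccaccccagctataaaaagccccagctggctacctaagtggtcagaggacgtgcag
Sdha holds 3 NRF1 matches, Cox6a1 2 and 1 ETS match, Cox8a 2 ETS matches, and Cox8b neither. No match of the 4 motifs was found in 38 of 82 promoters of nuclear members, among them those of the muscle isoforms Cox8b and Cox7a1 and of the ubiquitous Cox7a2. The NRF1 letters stand in 30.5% of 82 promoters of nuclear members, against 8.90% of 20150 promoters of protein-coding genes, and the ETS letters in 25.6% against 11.9%. The YY1 letters were found in 9.76% against 1.93%, and the ERR letters in 2.44% against 0.337%. In 0 of the 82 promoters did matches of different motifs overlap. These are matches of letters, not measured binding.

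Regorafenib against vehicle addressed what the kinase inhibitor alone changed. Levels of the nuclear members mostly lay below vehicle, by little, and 1 member passed the test. Of 95 nuclear members 86 had a log2 change below 0 and 9 above, with a median of -0.12, while the median of all tested genes was 0.00. By edgeR's quasi-likelihood test with Benjamini-Hochberg adjustment over 16909 genes, 0 nuclear members were higher (562 genes, 3.32% of all tested) and 1 lower (507 genes, 3%). At 1 of 95, the share of nuclear members called lower is below that background. The split of calls over all genes moved to 412 higher and 649 lower with scaling without mitochondrial genes, and to 627 and 361 with offsets for exon length and GC content. An unadjusted p under 0.05 was reached by 16 nuclear members (16.8%), against 24.5% of all tested genes, among them Atp5a1, Ndufa10 and Ndufs3 below 0 and Cox6a1 above.

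Ndufs1 (chromosome 1, 63143596 to 63176833) stood at 321, 322, 289.97 and 298 CPM in the 4 regorafenib libraries, against 369, 381, 379 and 406 CPM in the 4 vehicle libraries. Every regorafenib library lay below every vehicle library, and the log2 change was -0.32 ± 0.09 (SE; edgeR adjusted p = 0.0377). The call held without regorafenib 2 (adjusted p = 0.0438) and was lost without each of the other 7 libraries, with adjusted p from 0.0512 without vehicle 2 to 0.121 without vehicle 4. It was also lost with the mean of the skeletal muscle markers as a covariate (log2 change -0.18, adjusted p = 0.17) and with offsets for exon length and GC content (-0.27, adjusted p = 0.084). An annotated noncoding transcript, Ino80dos, shares 5.93% of the 50-base windows of Ndufs1, counted on either strand.

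Sdha (chromosome 13, 74322254 to 74350280) had 618, 596, 514 and 546 CPM with regorafenib, against 683, 690.1, 707 and 788 CPM with vehicle. These groups did not overlap either, but the log2 change of -0.33 ± 0.10 just missed the threshold (edgeR adjusted p = 0.0505). It passed with scaling by RLE (adjusted p = 0.0456) and by DESeq2 (adjusted p = 0.0098). The iron-sulphur subunit Sdhb had a log2 change of -0.25 ± 0.12, and the membrane anchors Sdhc and Sdhd had -0.16 ± 0.11 and -0.20 ± 0.11 (edgeR adjusted p = 0.197, 0.382 and 0.246). Complex II thus had the lowest median of the complexes, -0.23 over 4 subunits.

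Complex I subunits lay below 0 in 35 of 36 cases (median -0.15), complex III in 8 of 8 (-0.11), complex IV in 14 of 16 (-0.11) and complex V in 15 of 16 (-0.14). Assembly factors stood closer to vehicle, with medians of -0.04 for complex I and -0.04 for complex II. In complex III the core protein Uqcrc1 had a log2 change of -0.12 ± 0.10 and the Rieske protein Uqcrfs1 -0.10 ± 0.09. In complex V the catalytic beta subunit Atp5b had -0.20 ± 0.10, the gamma subunit Atp5c1 -0.23 ± 0.10 and the small subunit Atp5k -0.10 ± 0.10. None of these passed (edgeR adjusted p = 0.18 or higher).

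Mitochondrial members had a median of -0.14, with 7 of 13 below 0 and 0 called in either direction, and 1 of them, mt-Nd5, reached an unadjusted p under 0.05. DESeq2 called 0 of them too. With offsets for exon length and GC content the median was -0.21. The 7 abundant genes had a median of -0.23. Complex I subunit mt-Nd5 stood at 9500.2, 8505, 7132 and 8638 CPM with regorafenib, against 10059, 8878, 10256 and 12045 CPM with vehicle (log2 change -0.29 ± 0.13; edgeR adjusted p = 0.179). Libraries of the groups overlapped in mt-Nd5, and in mt-Co1 too, with 38639, 36865, 27436 and 35929 CPM with regorafenib, against 39684, 38403, 40278 and 46868 CPM with vehicle. For mt-Co1 the log2 change was -0.25 ± 0.12, for mt-Cytb -0.23 ± 0.14, for mt-Nd1 -0.20 ± 0.13, for mt-Nd2 -0.24 ± 0.15, for mt-Nd4 -0.14 ± 0.14 and for mt-Nd6 0.03 ± 0.22. Of the 6 low genes, 5 lay above 0, from 0.06 for mt-Co2 to 0.37 for mt-Atp6, and mt-Atp8 at -0.32 (edgeR adjusted p = 0.455 or higher).

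Markers of other cells moved with this difference. Of the squamous markers 6 of 15 were higher and 0 lower, and of 8 tested stomach markers 6 were higher and 0 lower. Adipocyte markers lay below 0 in 8 of 8 cases (median -0.48, 1 called lower) and fibroblast markers in 7 of 8 (median -0.16, 1 called lower). Leukocyte markers lay above 0 in 9 of 9 (median 0.34, 2 called higher) and erythrocyte markers in 5 of 5 (median 0.75, 1 called higher). The part of these 6 lists in the values of the members was not tested. Of the skeletal muscle markers 7 of 20 were lower and 0 higher (median log2 change -0.40), led by Ryr1 at -0.69 ± 0.11 (edgeR adjusted p = 0.00267). With the mean of those markers as a covariate, the median was 0.01 for nuclear and 0.06 for mitochondrial members, and 0 members were called. In that fit 63 of all 16909 tested genes were higher and 79 lower, so few calls were left among all genes. Since muscle content and treatment separate the same libraries, they cannot be told apart in this comparison. With all tested genes in 4 equal classes by exon length, the median change ran from 0.05 in the shortest class to -0.05 in the longest. The 66 nuclear members in the shortest class had a median of -0.11, and the 4 in the longest -0.14.

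**Figure D3:**
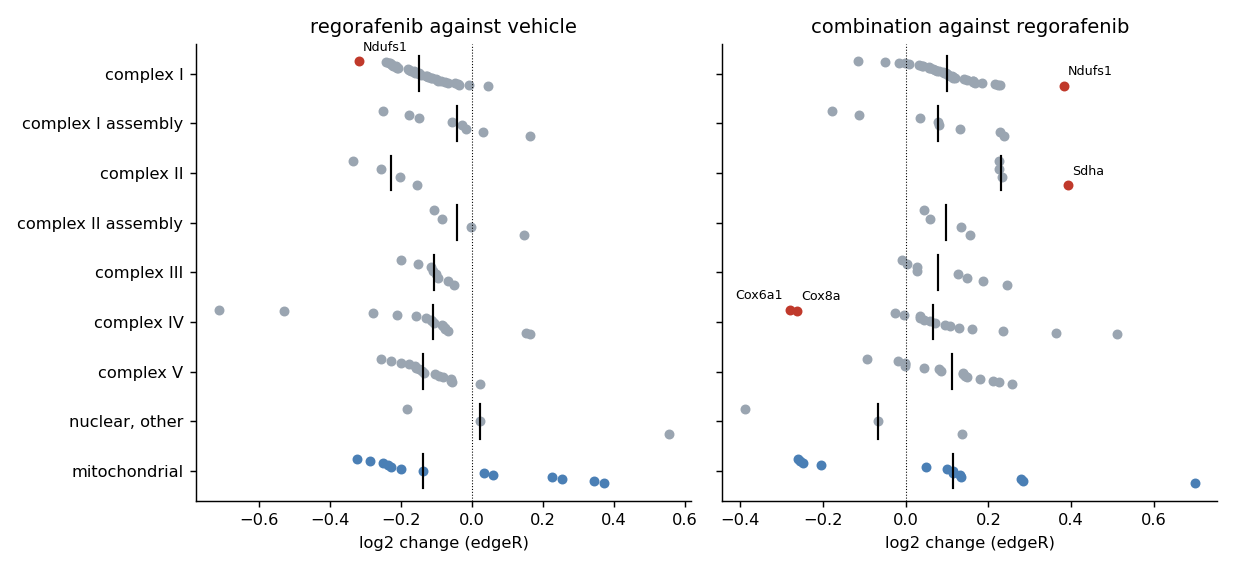
Log2 change (horizontal axes, edgeR) of every member by complex, for regorafenib against vehicle and for the combination against regorafenib; grey points are nuclear members, blue ones mitochondrial, red ones pass the adjusted p of 0.05, and black bars are medians. In the left panel 86 of 95 nuclear members lie below 0, and in the right panel 77 lie above.

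The combination against regorafenib addressed what adding anti-PD1 to regorafenib changed, and here 4 members passed. Ndufs1 and Sdha were higher in the combination, and Cox6a1 and Cox8a lower. With 2 of 95 nuclear members in each direction, their shares are below the background of 958 genes higher (5.67%) and 810 lower (4.79%). Nuclear members had a median log2 change of 0.10, with 77 of 95 above 0, and mitochondrial members 0.11, with 9 of 13 above 0. Offsets for exon length and GC content gave 0.18 for both. The regorafenib libraries serve in this comparison and in the one against vehicle, so the values of both are given side by side and not as support for each other.

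Ndufs1 had 423, 403, 429, 388 and 364 CPM in the combination, against 321, 322, 289.97 and 298 CPM with regorafenib, with no overlap (log2 change 0.38 ± 0.08; edgeR adjusted p = 0.0106). Sdha had 789.5, 764, 814, 666 and 699 CPM in the combination, against 618, 596, 514 and 546 CPM with regorafenib. These also did not overlap (log2 change 0.39 ± 0.09; adjusted p = 0.0166 by edgeR). In complex II, Sdhb, Sdhc and Sdhd had changes of 0.23 ± 0.11, 0.23 ± 0.10 and 0.23 ± 0.10, none of which passed (edgeR adjusted p = 0.189, 0.15 and 0.152).

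Cox6a1 (chromosome 5, 115345642 to 115348981) had 81.9, 91.5, 82.7, 85.0 and 82.8 CPM in the combination, against 102, 102, 97.3 and 109.6 CPM with regorafenib. Its log2 change of -0.28 ± 0.05 had the smallest p of all members (edgeR adjusted p = 0.00505). Against vehicle its values were -0.12 ± 0.05 for the combination and 0.16 ± 0.05 for regorafenib (edgeR adjusted p = 0.424 and 0.0732). Cox8a (chromosome 19, 7215153 to 7217616) had 84.8, 94.02, 83.6, 87.02 and 87.2 CPM in the combination, against 105, 108, 94.05 and 111.9 CPM with regorafenib. The highest combination library lay just under the lowest regorafenib one, and the log2 change was -0.26 ± 0.06 (edgeR adjusted p = 0.0111).

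**Figure D4:**
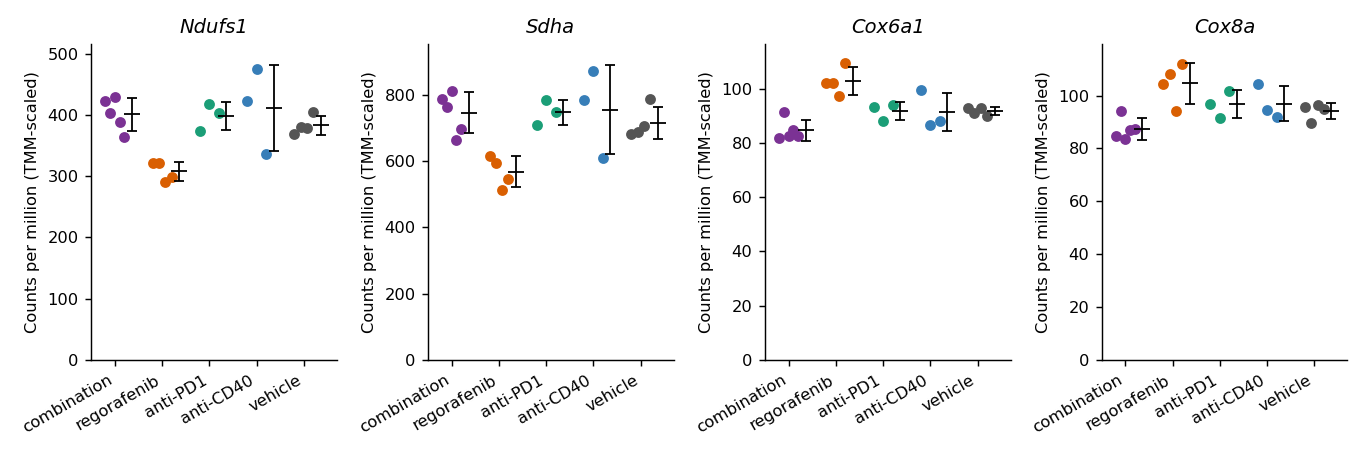
TMM-scaled CPM (vertical axes, from 0) of the 4 members called in the combination against regorafenib, in each library; bars give the mean and SD of a group. The 4 regorafenib libraries are the lowest of all in Ndufs1 and below every combination and vehicle library in Sdha, and in Cox6a1 and Cox8a they lie above the combination.

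In the antibody groups the 4 members stood near vehicle. Ndufs1 had 374, 418 and 403 CPM with anti-PD1 and 422, 476 and 336 CPM with anti-CD40. Sdha had 710.1, 785 and 749 CPM with anti-PD1 and 786, 873 and 609.9 CPM with anti-CD40. In both genes anti-CD40 3 was the lowest library outside the regorafenib group and anti-CD40 2 the highest of all. Cox6a1 ranged from 88.1 to 94.2 CPM with anti-PD1, from 86.7 to 99.5 CPM with anti-CD40 and from 90.2 to 93.0 CPM with vehicle. Cox8a ranged from 91.4 to 101.9 CPM with anti-PD1, from 91.8 to 104 CPM with anti-CD40 and from 89.7 to 96.4 CPM with vehicle. The combination itself differed from vehicle by log2 changes of 0.07 ± 0.08 for Ndufs1 and 0.06 ± 0.09 for Sdha (edgeR adjusted p = 0.851 and 0.891).

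By complex, 32 of 36 complex I subunits lay above 0 in the combination against regorafenib (median 0.10), 7 of 8 of complex III (0.08), 12 of 16 of complex IV (0.06) and 11 of 16 of complex V (0.11). Complex II had the highest median, 0.23, with 4 of 4 above 0. Among the subunits named for their complex, Atp5b had a log2 change of 0.22 ± 0.09, Atp5c1 0.21 ± 0.10, Uqcrfs1 0.19 ± 0.08, Uqcrc1 0.15 ± 0.09 and Atp5k 0.00 ± 0.09, none of which passed (edgeR adjusted p = 0.117 or higher). An unadjusted p under 0.05 was reached by 17 nuclear members (17.9%), against 28.1% of all tested genes. The 66 nuclear members of the shortest length class had a median of 0.08, against -0.10 for all genes of that class, and the 4 of the longest 0.14, against 0.06.

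Without regorafenib 4, Cox8a and Sdha lost the call (adjusted p = 0.0504 and 0.0599), and 2 members stayed past the threshold. With DESeq2 6 members passed, Uqcrc2 and Atp5a1 in addition, and with only the groups compared 5, Ndufaf1 in addition. Over all genes DESeq2 called 1346 higher and 1040 lower among 32871 with a p-value, some of which may lack an adjusted p. With only the groups compared, 1210 were higher and 898 lower among 16114. With offsets for exon length and GC content the changes of Cox6a1 and Cox8a shrank to -0.11 and -0.07 (adjusted p = 0.163 and 0.344), while Ndufs1 and Sdha passed (adjusted p = 0.0404 and 0.0266), as did Ndufaf1. Over the union of all annotated exons, Cox6a1 and Cox8a have lengths of 702 and 619 bases, Ndufs1 and Sdha of 8086 and 4126. Stomach markers were lower in 6 of 8 cases (median -6.03) and squamous markers in 4 of 15, with 15 of 15 below 0 (median -0.22). The stomach share of combination 5 (0.0610%) nevertheless lay above that of every regorafenib library. Adipocyte markers lay above 0 in 7 of 8 cases (median 0.53, 1 called higher), fibroblast markers in 8 of 8 (median 0.33, 1 called higher) and erythrocyte markers in 0 of 5 (median -0.65, 1 called lower), and the part of these lists was not tested. Skeletal muscle markers were higher in 8 of 20 cases and lower in 0 (median 0.48). With their mean as a covariate 0 members passed, and the median of nuclear members was -0.0815 and that of mitochondrial members -0.14. In that fit 9 of all tested genes were higher and 2 lower. Other annotated transcripts share 12.3% of the 50-base windows of Cox6a1 and 0% of those of Sdha and Cox8a. Among nuclear members that share was highest for Atp5l (84.8%) and Sdhaf1 (69%), whose counts are uncertain for that reason.

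Among mitochondrial members of the combination against regorafenib, 0 passed in either direction by edgeR and by DESeq2, and 1 reached an unadjusted p under 0.05, again mt-Nd5, at 0.28 ± 0.12 (edgeR adjusted p = 0.141). It had 10500, 10001, 11438, 9730 and 9727 CPM in the combination, all above the 4 regorafenib libraries. The other abundant genes ran from 0.10 for mt-Nd4 to 0.28 for mt-Nd6, so that 7 of 7 lay above 0 (median 0.13). The low genes had no common direction, from -0.26 for mt-Atp6 to 0.70 for mt-Atp8, which had 2 to 25 counts per library.

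The muscle and ubiquitous isoforms of complex IV were set side by side, since the tumours hold both epithelium and muscle. In vehicle, levels per kilobase of exon were 527 CPM per kb for Cox6a2 and 131 for Cox6a1, 333 for Cox7a1 and 153 for Cox7a2, and 397 for Cox8b and 152 for Cox8a. The muscle form was thus the higher of each pair per length. Cox6a2 had 296 ± 56.0 CPM with regorafenib (SD, n = 4) and 359 ± 34.7 CPM with vehicle (n = 4), a log2 change of -0.28 ± 0.15 (edgeR adjusted p = 0.245). Cox7a1 and Cox8b had -0.13 ± 0.17 and -0.21 ± 0.18 in the same comparison, and Cox7a2 -0.08 ± 0.09 (edgeR adjusted p = 0.667, 0.501 and 0.587). As a sum, Cox6a2, Cox7a1 and Cox8b held 0.0658% ± 0.00847 of counts in the combination (n = 5), 0.0592% ± 0.0107 with regorafenib (n = 4) and 0.0668% ± 0.00943 with vehicle (n = 4). Their ubiquitous counterparts held 0.0306% ± 0.00107, 0.0350% ± 0.00227 and 0.0324% ± 0.000963 in the same groups. Regorafenib 4 had 339 CPM of Cox6a2 at 3.49% of muscle markers, more than vehicle 2, with 315 CPM at 4.46%.

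**Figure D5:**
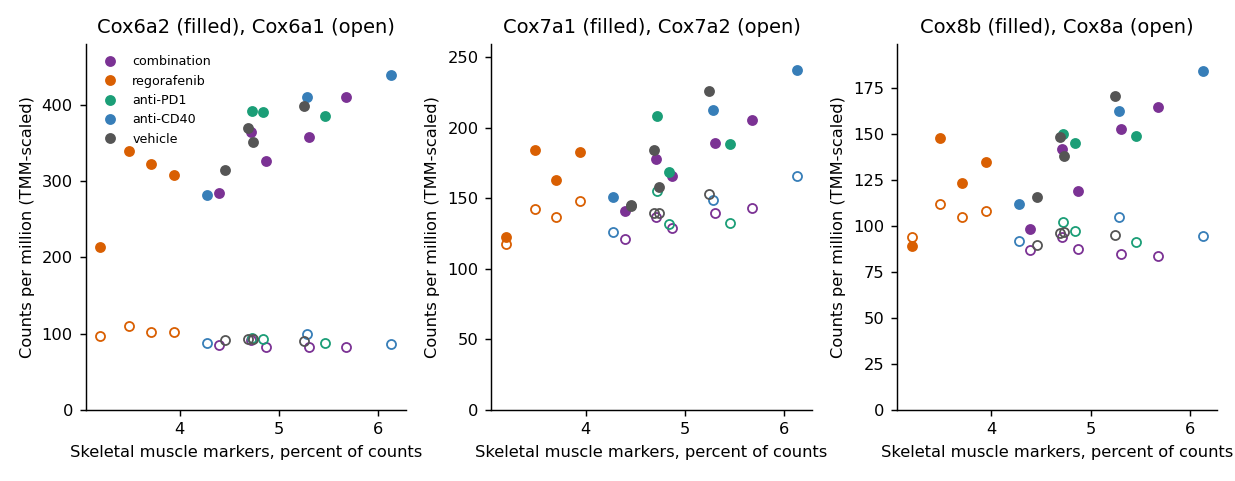
TMM-scaled CPM (vertical axes, from 0) of muscle isoforms (filled) and ubiquitous isoforms (open) of 3 complex IV subunits, against the percent of counts from 20 skeletal muscle markers (horizontal axes, not from 0); each point is a library, coloured by group. The regorafenib libraries lie at the left, from 3.20% to 3.94%, and the lowest filled point of each panel is regorafenib 3.

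Cox4i1, the common form of its subunit, stood at 304 CPM per kb in vehicle, and Cox4i2 at 2.16. Cox4i2 had 1.18 ± 0.201 CPM with regorafenib and 1.70 ± 0.514 CPM with vehicle (SD, n = 4 each), a log2 change of -0.53 ± 0.26 that did not pass (edgeR adjusted p = 0.22). Ndufa4l2, known as a hypoxia-induced relative of Ndufa4, had 21.4, 25.03, 24.3 and 58.2 CPM with regorafenib, against 24.2, 14.4, 25.9 and 23.5 CPM with vehicle. The fitted change of 0.55 ± 0.26 (edgeR adjusted p = 0.206) came with 1 library, regorafenib 4, well above the rest. Ndufa4 itself had -0.08 ± 0.09 (edgeR adjusted p = 0.655).

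Anti-PD1, anti-CD40 and the combination were each compared with vehicle, and 0 members were called in any of the 3. Background calls were 0% higher and 0% lower with anti-PD1, 0% and 0% with anti-CD40, and 0% and 0.0237% with the combination. By unadjusted p under 0.05, there was 1 nuclear member with anti-PD1, 1 with anti-CD40 and 2 with the combination, and no mitochondrial one, against 9.32%, 6.06% and 10.8% of all tested genes in these comparisons. DESeq2 also called 0 members in these 3 comparisons. Over all 32871 genes it called 54 higher and 16 lower with anti-PD1, 0 and 4 with anti-CD40, and 48 and 70 with the combination. With anti-PD1 the nuclear median was 0.04 (63 of 95 above 0) and the mitochondrial one 0.13 (11 of 13). The smallest p values belonged to Ndufaf2, a complex I assembly factor, at -0.21 ± 0.10, mt-Nd3 at 0.53 ± 0.29 and Ndufa4l2 at 0.48 ± 0.28 (edgeR adjusted p = 0.514, 0.588 and 0.629).

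With anti-CD40, 87 of 95 nuclear members lay above 0 (median 0.08) and 11 of 13 mitochondrial ones (0.09), while the median of all tested genes was 0.01. Libraries were uneven: anti-CD40 2 had the highest nuclear share of all libraries (2.30%) and anti-CD40 3 the third lowest (1.80%), with muscle markers at 6.13% and 4.27% of counts. The smallest p values were those of Uqcrfs1, at 0.21 ± 0.10, Cox6b2, a testis isoform of complex IV, at -0.55 ± 0.27, and the complex I subunit Ndufa2, at 0.23 ± 0.12 (edgeR adjusted p = 0.817, 0.82 and 0.825). With the combination, 25 of 95 nuclear members lay above vehicle (median -0.04) and 5 of 13 mitochondrial ones (-0.02). The smallest p belonged to Sdhaf3, a complex II assembly factor, which had 7.58, 7.86, 8.58, 8.04 and 8.07 CPM in the combination, against 6.55, 6.70, 6.55 and 6.23 CPM with vehicle. The groups did not overlap, and the log2 change was 0.30 ± 0.09 (edgeR adjusted p = 0.254). Cox6a1 and Cox8a followed, at -0.12 ± 0.05 and -0.11 ± 0.06 (edgeR adjusted p = 0.424 and 0.513).

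The combination was also compared with anti-PD1, to see what regorafenib added to the antibody. Here 0 members were called, with a background of 1 gene higher (0.00591%) and 0 lower (0%). DESeq2 called 0 members as well, with 57 genes higher and 37 lower among 32871. Of the nuclear members 83 of 95 lay below 0 (median -0.06), and of the mitochondrial members 13 of 13 (median -0.11), while 2 nuclear members (2.11%) and 0 mitochondrial ones reached an unadjusted p under 0.05, against 9.94% of all tested genes. Sdhaf3 again had the smallest p, at 0.35 ± 0.10, followed by Cox8a at -0.15 ± 0.06 and Cox6a1 at -0.12 ± 0.06 (edgeR adjusted p = 0.212, 0.416 and 0.503).

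The interaction asked whether the difference between the combination and anti-PD1 departed from that between regorafenib and vehicle. Among members 0 passed by edgeR, with 76 genes higher (0.449%) and 30 lower (0.177%) in the background. At an unadjusted p under 0.05 there were 7 nuclear members (7.37%) and 0 mitochondrial ones, against 15.8% of all tested genes. The smallest p belonged to Cox6a1, at -0.28 ± 0.08, and Cox8a, at -0.30 ± 0.09 (edgeR adjusted p = 0.0926 and 0.103). DESeq2 called both (adjusted p = 0.0259 and 0.0426), with 364 genes higher and 202 lower among 32871. Ndufs1 and Sdha had interaction terms of 0.33 ± 0.13 and 0.33 ± 0.14 (edgeR adjusted p = 0.204 and 0.262). The median was 0.05 over nuclear members (72 of 95 above 0) and -0.03 over mitochondrial members (6 of 13).

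Genes around the respiratory chain gave a wider view. Muscle markers also differed in the comparisons given here, and the part of that difference in the calls was not tested. With the skeletal muscle covariate, 0 genes of the lists below passed in the combination against regorafenib, where only 9 of all 16909 tested genes were higher and 2 lower. In regorafenib against vehicle those that passed with it were 6 of 16 glycolysis genes, all higher, with 63 of all tested genes higher and 79 lower. In the tricarboxylic acid cycle, which feeds it with NADH, 3 of 17 genes were lower with regorafenib than with vehicle and 0 higher (median -0.25), among them Pdha1, of pyruvate dehydrogenase, at -0.36 ± 0.10, and Ogdh, of oxoglutarate dehydrogenase, at -0.34 ± 0.10 (edgeR adjusted p = 0.0424 and 0.0456). In the combination against regorafenib, 8 of 17 were higher and 0 lower (median 0.28). Called glycolysis genes lay mostly on the other side. With regorafenib 6 of 16 were higher than with vehicle and 0 lower, among them Pgam1 at 0.66 ± 0.07, the glucose transporter Slc2a1 at 0.94 ± 0.13 and Pfkl at 0.61 ± 0.09 (edgeR adjusted p = 0.000353, 0.00136 and 0.00229). In the combination against regorafenib 5 were lower and 1 higher, the muscle phosphofructokinase Pfkm.

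Of 15 regulators of respiration, 2 were higher and 1 lower with regorafenib than with vehicle: Hif1a, the hypoxia factor, at 0.96 ± 0.18, Ppard at 0.26 ± 0.07 and Ppara, a receptor that drives fatty acid oxidation, at -0.72 ± 0.17 (edgeR adjusted p = 0.00938, 0.0384 and 0.0191). In the combination against regorafenib, Ppara at 0.82 ± 0.16, the coactivator Ppargc1a at 0.81 ± 0.21 and Ppargc1b at 0.41 ± 0.13 were higher, and Myc and Ppard lower (edgeR adjusted p = 0.00673, 0.0225 and 0.0445 for the first 3). Of 16 mitochondrial carrier and outer membrane genes, 2 were higher and 1 lower with regorafenib than with vehicle (median -0.15). In the combination against regorafenib 1 was higher and 3 lower (median 0.15). The ADP/ATP carrier Slc25a5 was higher with regorafenib than with vehicle, at 0.32 ± 0.06, and lower in the combination than with regorafenib, at -0.32 ± 0.06 (edgeR adjusted p = 0.0115 and 0.00655). The muscle-rich aspartate carrier Slc25a12 had -0.38 ± 0.10 and 0.42 ± 0.10 in the same comparisons (edgeR adjusted p = 0.0337 and 0.0147). Of 42 tested assembly factors outside the member rule, 0 passed with regorafenib (7 at an unadjusted p under 0.05), and 3 were higher in the combination than with regorafenib: Taco1, Atpaf1 and Ttc19. Genes of mitochondrial DNA maintenance and transcription had 0 of 23 called in both comparisons (medians 0.00 and 0.02), with an unadjusted p under 0.05 for 3 and 4. Of 15 fatty acid oxidation genes 0 were called with regorafenib, where 6 reached an unadjusted p under 0.05, and 1 in the combination against regorafenib, Etfdh, which was higher. Of all tested genes, regorafenib against vehicle called 3.32% higher and 3% lower, with 24.5% at an unadjusted p under 0.05. The combination against regorafenib called 5.67% higher and 4.79% lower, with 28.1% at that p.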

How the data were processed

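RNA of 19 tumour libraries was analysed from 1 deposited table of whole-number counts per gene, not normalized by the authors. The submitters' processing notes name STAR 2.7.2a, cutadapt 2.4 and the build GRCm38, and per the labels' protocols libraries were poly-A selected with a stranded kit. Which counter, strand option and gene annotation the authors used is not stated in the labels, so genes that overlap or share sequence are uncertain. Columns were matched to samples by name. Symbols and coordinates came from GENCODE M21. Exon length is that of the union of all annotated exons of a gene, and can exceed the length of its transcripts.

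The members, gene lists and tests were chosen with earlier results of these data known. Low genes were removed with filterByExpr, TMM factors were computed, and edgeR 4.0.16 (R 4.3.3) fitted 1 mean per group over all 19 libraries (robust quasi-likelihood, 14 residual degrees of freedom). The 7 tests were two-sided, with p adjusted by Benjamini and Hochberg over 16909 genes at a threshold of 0.05. The labels give groups and replicate numbers in the sample titles. Same-numbered libraries of different groups deviated together in some cases (33 pairs, r from -0.553 to 0.646, 17 above 0.1), but every pair lay above 0.1 only for anti-CD40 against vehicle (3 pairs, r from 0.193 to 0.592), where a replicate block also called 0 members. For 4 libraries the number in the title differs from that in the column name, and title numbers were used. The SE is the log2 change divided by the root of the F statistic. Counts of every pair of libraries within a group differed by more than sampling noise, with a lowest chi-square of 12.8 per degree of freedom. Alternatives were RLE scaling, scaling without mitochondrial genes, no filter, DESeq2 1.42.0, only the groups compared, a replicate block, a skeletal muscle covariate, length and GC offsets (16889 genes) and leaving out each library. A salivary gland covariate was added after the data were seen. DESeq2 gave p-values for 32871 genes. Its own filter on low counts can leave some of these without an adjusted p, so that they could not be called.

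Named members were those that passed, up to 8 per direction by p, or the 3 with the smallest p. The rule added the 13 mitochondrial mRNAs, the isoform pairs, all complex II subunits, 5 further subunits and the highest member of each genome. Atp5a1, Ndufa10 and Ndufs3, Cox7a2l, Atp5l, Uqcrc2, Ndufaf1, Sdhaf1, Pfkm, Ppargc1b and the marker genes of heart and brown fat were named after their values were seen. Windows of 50 bases of each member's longest protein-coding transcript were matched, on either strand, to the annotated transcripts of all other genes. Python 3.11.15 with matplotlib 3.10.9 drew the figures.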

Additional observations from a re-analysis of the deposited data

Results flagged for a closer look

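For 38 named members and 6 shares of counts, the highest and lowest library of each group of 4 or 5 were set against the rest by Dixon's criterion. Of 132 sets of values looked at, 10 held a library that stood apart, where chance alone marks about 1 in 20.

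In regorafenib 3, Ndufa4 was low at 300.8 CPM, against 362.4 to 373.7 CPM in the other 3 regorafenib libraries, and mt-Nd3 was low at 0.9574 CPM, against 1.417 to 1.433 CPM. Regorafenib 4 held the high value of Ndufa4l2, 58.24 CPM, with the other 3 between 21.44 and 25.03 CPM. Ndufaf2 was low in combination 5, at 6.975 CPM, against 7.653 to 7.91 CPM in the other 4 combination libraries.

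Among vehicle libraries, vehicle 4 was high in mt-Cytb, at 2.007e+04 CPM against 1.499e+04 to 1.562e+04 CPM, and in the ratio of mitochondrial to nuclear members, at 5.002 against 4.594 to 4.631. Vehicle 1 was high in mt-Atp8, at 0.953 CPM against 0.5542 to 0.5859 CPM, and vehicle 2 low in mt-Nd4l, at 0.7053 CPM against 0.9857 to 1.032 CPM. The genes mt-Atp8, mt-Nd4l and mt-Nd3 rest on few counts. The summed share of the ubiquitous isoforms Cox6a1, Cox7a2 and Cox8a was high in combination 2, at 0.03247% of counts against 0.02992% to 0.03033%, and low in vehicle 2, at 0.03101% against 0.03282% to 0.03311%.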

How the results depend on the processing

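Regorafenib against vehicle, with 1 nuclear member called, gave 2 with RLE scaling and 2 with scaling without mitochondrial genes (Ndufs1 and Sdha), 4 with DESeq2 (Cox6a1 higher, Ndufs1, Sdha and Atp5a1 lower), 3 with only the groups compared and 3 with the salivary gland covariate. It gave 0 with the skeletal muscle covariate, 0 with length and GC offsets and 0 with the replicate block, in which Ndufs1 had an adjusted p of 0.0531. Leaving out 1 library at a time gave 0 to 1. Over all 32871 genes DESeq2 called 809 higher and 859 lower in this comparison. The combination against regorafenib, with 4 called, gave 0 with the skeletal muscle covariate, where the median of nuclear members was -0.0815 in place of 0.10. It gave 6 with DESeq2, 5 with only the groups compared, 3 with length and GC offsets, and 2 to 4 when 1 library was left out. With the block it called the same 4 members. DESeq2 called 2 members in the interaction, Cox6a1 and Cox8a. The cause of these differences was not tested. No mitochondrial member was called under any alternative run. Of the counts, medians and shares recomputed, 387 stayed close to the value reported and 19 moved. Medians counted as close when they shifted by less than the within-group SD of the set mean, 0.139 (nuclear) or 0.257 (mitochondrial). Those limits exceed the size of the medians of -0.12 and -0.14 in regorafenib against vehicle. Equal counts, 0 included, also counted as close. The tally therefore does not show that such medians kept their size or sign. Low counts limit mt-Nd3, mt-Nd4l and mt-Atp8, with means under 25 per library.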
